A study of Mus musculus with 8 samples.

Results

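Strong DC-SCRIPT binding peaks at gene ends that were listed in type 1 conventional dendritic cells (cDC1) and not in type 2 cells (cDC2) are described. A peak was taken where it held at least 25 normalised wild-type tags (tags scaled to a total of 10000000) in the cDC1 list, where its centre lay within 1 kb of either end of a protein-coding gene of the GRCm38 RefSeq annotation, and where no cDC2 peak had its centre within 1 kb. The rule gave 2112 of 31473 cDC1 peaks (6.71%). Of 8201 cDC1 peaks with at least 25 normalised tags, 6824 had no cDC2 peak centre within 1 kb, and 2112 of those lay at a gene end. The rule used the wild-type tags, the wild-type over knockout call and the cDC2 list, so these values are given as a description and without tests.

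The binding profiles were made by CUT&Tag, in which an antibody directs a transposase to cut and tag DNA next to its target, on cDC1 and cDC2 sorted from spleens of female C57BL/6 mice. Cells of zfp366-/- mice, which lack the DC-SCRIPT gene, gave 2 cDC1 and 2 cDC2 libraries, and cells of zfp366+/+ mice gave 3 cDC1 and 1 cDC2 libraries. Each library was a pool of mice. The 2 deposited peak lists, 31473 peaks for cDC1 and 2776 for cDC2, each hold the tags of 1 knockout set and 1 wild-type set with no column per library, so no spread between pools can be given. The tag totals were 12.1 M for knockout cDC1, 35.5 M for wild-type cDC1 and 4.77 M for wild-type cDC2. The cell type and the part of the gene that was deleted could not be checked in peak lists, which hold binding and no RNA, and no peak of the rule lay at an end of Zfp366. In a mixed pool of cells, binding in more cells and more binding per cell cannot be told apart.

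DC-SCRIPT, the product of Zfp366, is a zinc finger protein of conventional dendritic cells that binds DNA and works with the corepressors of the CtBP family. cDC1 are specialised in taking up dying cells and showing their antigens to CD8 T cells, and they make interleukin 12, whereas cDC2 mainly present antigen to CD4 T cells. A gene's start carries its promoter, where transcription factors and RNA polymerase assemble, and many promoters of widely expressed genes are CpG islands rich in GC boxes, CCAAT boxes and ETS sites, bound by Sp1-like factors, NF-Y and ETS factors. PU.1, an ETS factor of myeloid cells, prefers a longer purine-rich site.

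The DNA under 7 of these peaks shows the 4 kinds of short motif that the counts below turn on. Each line gives the part of a gene's promoter window (250 bases before to 50 after an annotated transcript start, RefSeq, build GRCm38.p6) that lay inside the peak, 5′ to 3′ along the gene's strand, with matches on either strand in capitals: GGGCGG (GC box), CCAAT (the NF-Y box), CCGGAAG (ETS) and GAGGAAGT (PU.1), or their reverse complements. The 7 were picked from the named genes because they hold such matches. Of 974 promoter windows that held the centre of a peak, 694 (71.3%) had at least 1 of the 4 in the part under the peak and 280 (28.7%) had none.
Dusp10, GRCm38.p6 chr1:184034188-184034378, plus strand: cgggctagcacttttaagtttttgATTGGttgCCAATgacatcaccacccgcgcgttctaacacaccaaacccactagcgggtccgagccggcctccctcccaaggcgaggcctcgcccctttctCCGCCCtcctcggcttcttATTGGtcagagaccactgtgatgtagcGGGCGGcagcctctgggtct
Stat3, GRCm38.p6 chr11:100939491-100939657, minus strand: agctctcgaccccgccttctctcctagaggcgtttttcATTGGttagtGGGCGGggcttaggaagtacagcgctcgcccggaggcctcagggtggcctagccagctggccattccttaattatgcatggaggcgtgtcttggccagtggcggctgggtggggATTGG
Cd68, GRCm38.p6 chr11:69666121-69666275, minus strand: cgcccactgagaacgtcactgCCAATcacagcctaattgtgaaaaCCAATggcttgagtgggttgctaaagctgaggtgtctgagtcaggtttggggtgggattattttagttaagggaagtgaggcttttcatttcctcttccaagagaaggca
Sp1, GRCm38.p6 chr15:102406066-102406162, plus strand: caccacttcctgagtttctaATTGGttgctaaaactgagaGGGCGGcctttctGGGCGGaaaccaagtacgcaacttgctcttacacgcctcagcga
Bcl2l11, GRCm38.p6 chr2:128125788-128125945, plus strand: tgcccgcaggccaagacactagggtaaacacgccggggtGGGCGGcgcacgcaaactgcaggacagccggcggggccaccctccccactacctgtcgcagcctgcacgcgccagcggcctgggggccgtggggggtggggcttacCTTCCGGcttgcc
Ifnar1, GRCm38.p6 chr16:91485017-91485207, plus strand: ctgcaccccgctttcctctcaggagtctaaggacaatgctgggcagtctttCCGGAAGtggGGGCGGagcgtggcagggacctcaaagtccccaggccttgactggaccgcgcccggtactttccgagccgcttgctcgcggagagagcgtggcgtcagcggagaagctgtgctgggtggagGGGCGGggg
Ly6c2, GRCm38.p6 chr15:75111930-75112120, minus strand: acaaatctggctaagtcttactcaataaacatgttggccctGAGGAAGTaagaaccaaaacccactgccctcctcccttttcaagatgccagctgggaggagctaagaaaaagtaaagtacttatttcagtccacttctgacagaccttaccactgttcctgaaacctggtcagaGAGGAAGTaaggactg

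The Dusp10 and Stat3 sequences carry NF-Y boxes beside GC boxes, and that of Cd68 has a pair of CCAAT boxes and no GC box. The sequence of Sp1, which encodes the factor that binds GC boxes, has a pair of GC boxes itself. The Bcl2l11 and Ifnar1 sequences join an ETS match to GC boxes. Ly6c2 is the one of the 7 with PU.1 matches, on either side of its start. A match is a run of letters and not a shown site.

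Most of these peaks sat at gene starts. The strand was known for 17492 of 21900 protein-coding genes, which placed 1793 of the 2112 peaks at a start or a terminus (the 3′ end of the gene) and left 319 unplaced. Of the placed peaks, 1689 lay at a start and 104 at a terminus, a start share of 94.2% (exact Clopper-Pearson 95% interval 93.0% to 95.2%). Among strong gene-end peaks with a cDC2 peak within 1 kb, called shared here, the start share was 91.1% (86.2% to 94.8%, 175 of 192), and among cDC1-only gene-end peaks with fewer than 25 normalised tags it was 90.0% (88.9% to 91.0%, 2958 of 3287). Starts held most of the peaks in each of the 3 sets. These intervals cover counting error only, and neighbouring peaks are not replicates.

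Around the start the peaks formed 2 groups, one upstream and one inside the gene, with fewer at the start itself. Between 250 and 100 bp upstream lay 476 of the 1689 (28.2%), and between 50 and 200 bp downstream lay 399 (23.6%), intervals chosen after the histogram was seen. Shared strong peaks had 28.0% upstream and 17.7% downstream (175 peaks), and weaker cDC1-only peaks had 19.0% and 29.1% (2958 peaks). So the strong peaks, cDC1-only and shared, were more often upstream than downstream, and the weaker peaks the other way round. The median centre was 38 bp upstream of the start for the strong cDC1-only peaks (quartiles 175 bp upstream and 127 bp downstream), 59 bp upstream for the shared ones and 69.5 bp downstream for the weaker ones. These distances run from a gene's outermost annotated start, which 60.8% of promoter windows share within 1 bp. Measured from the nearest annotated transcript start instead, the strong cDC1-only peaks had 33.5% upstream and 20.5% downstream in the same intervals, and the weaker ones 21.2% and 28.7%.

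**Figure D1:**
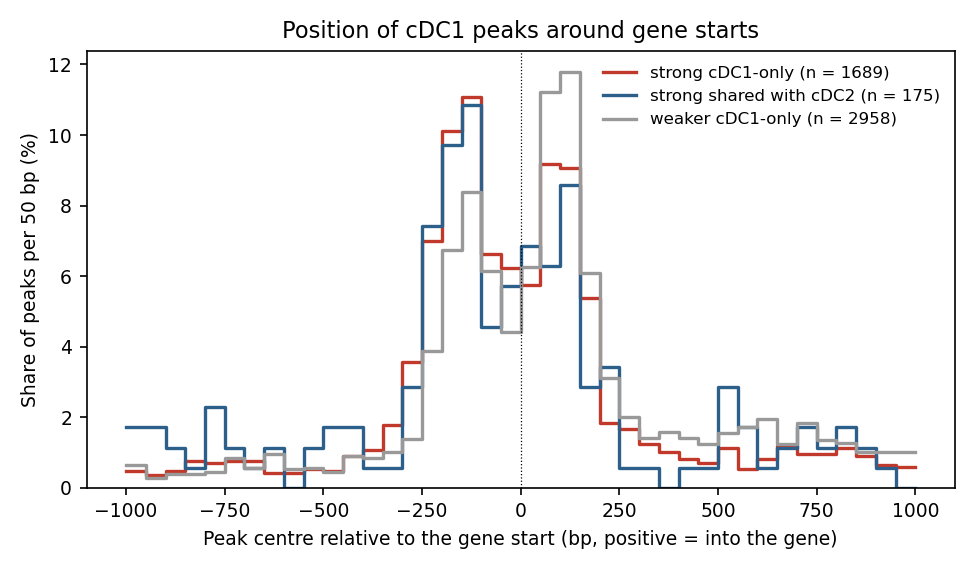
Position of peak centres around gene starts: the x axis is the distance in bp from the start (positive into the gene) and the y axis the share of each set's peaks per 50 bp. Strong cDC1-only peaks (n = 1689) have an upstream and a downstream maximum, with 28.2% between 250 and 100 bp upstream and 23.6% between 50 and 200 bp downstream, whereas weaker cDC1-only peaks (n = 2958) have 19.0% and 29.1%.

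The shift with strength ran through the strong peaks too. The share upstream of the start was 47.7% at 25 to 30 normalised tags (210 of 440), 51.6% at 30 to 40 (294 of 570), 60.1% at 40 to 60 (277 of 461) and 63.8% at 60 and over (139 of 218). The median centre moved over the same steps, with 16 bp downstream in the lowest and 128 bp upstream in the highest. Stronger binding thus lay farther 5′. The tag steps were chosen after the files were read.

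Opposite gene starts were frequent. Of the 2112 peaks, 258 (12.2%, exact 95% interval 10.8% to 13.7%) lay within 1 kb of the starts of 2 genes read in opposite directions, against 18 of 223 shared strong peaks (8.07%, 4.85% to 12.5%) and 334 of 4009 weaker cDC1-only peaks (8.33%, 7.49% to 9.23%). Of 1878 genes with such a peak at their start, 494 (26.3%) had an opposite start within 1 kb, against 1795 of all 17492 genes with a strand (10.3%). A peak was counted for each gene start within 1 kb, so a gene could be counted through a peak at its neighbour's start. Part of the gap between these gene shares thus comes from the counting, which the shares per peak avoid. Psme2, a subunit of the proteasome activator, and Rnf31, a ubiquitin ligase of NF-κB signalling, share the one at chr14:55591169-55591359, with 14.8 normalised tags in knockout and 129.8 in wild-type cDC1. At opposite starts the medians were 5.36 normalised tags in knockout and 38.4 in wild-type cDC1 (fold 7.07), and at the other 1431 start peaks 4.95 in knockout and 36.4 in wild-type cDC1 (fold 8.01).

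Read by knockout signal, the gene-end peaks stood apart from strong cDC1-only peaks elsewhere. All folds here are the deposited ones, wild type over knockout at equal depth, and the authors kept peaks with a fold of at least 4, which left 18% of 174971 putative peaks. At the 2112 gene-end peaks the median was 4.95 normalised tags in knockout and 36.2 in wild-type cDC1, with a median fold of 8 (quartiles 5.75 and 12). At 2710 strong cDC1-only peaks inside genes the medians were 3.30 in knockout and 34.4 in wild-type cDC1 (fold 11.8), and at 1290 peaks over 10 kb from any gene 2.89 in knockout and 34.4 in wild-type cDC1 (fold 13.7). The 3 sets share the wild-type minimum of 25, which limits how far their wild-type medians can differ. The knockout median was higher at gene ends than in the other 2 places. Weaker cDC1-only gene-end peaks had a median deposited fold near that of the strong ones, 7.92, with 36.9% at 10-fold or more, before the limit on low knockout values given below.

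The higher knockout signal at gene ends held at each tag level. At 60 normalised tags and over, the median knockout signal was 7.84 at strong gene-end peaks, shared or not, 4.95 inside genes and 4.12 far from genes. At 25 to 30 it was 3.71, 2.47 and 2.06 in the same places. A fold of at least 10 was met by 742 of the 2112 peaks (35.1%), by 1645 of those inside genes (60.7%) and by 870 of those far from genes (67.4%). No knockout tag above the lowest value was listed at 37 of the 2112 (1.75%), 157 of 2710 inside genes (5.79%) and 112 of 1290 far from genes (8.68%). The lowest listed value, 0.5 tag or 0.412 normalised, also stands for none, and with such peaks set at 3 knockout tags (2.47 normalised) the median folds were 8, 11.4 and 12.7. Of the 4009 weaker cDC1-only gene-end peaks, 593 (14.8%) had that lowest value. The same setting gave the weaker peaks a median fold of 6.59, below the 8 of the strong ones.

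**Figure D2:**
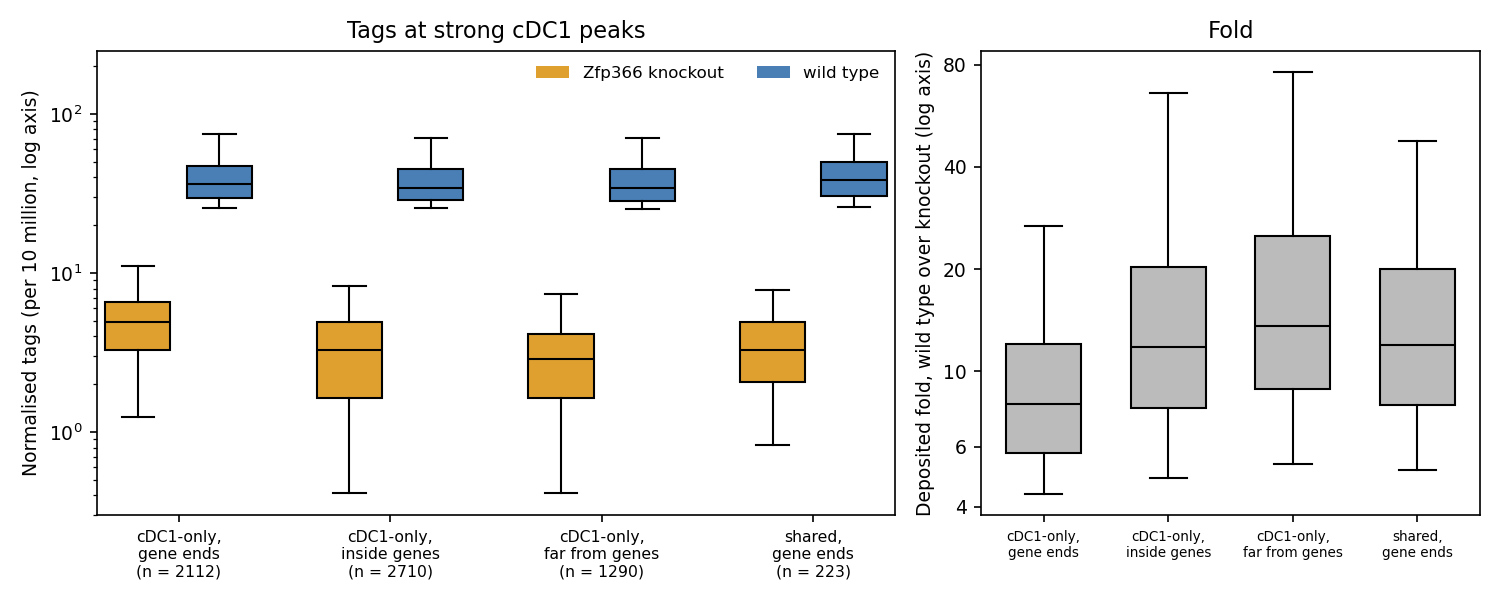
Left, normalised tags per 10000000 (log axis) in knockout and wild-type cDC1 at strong peaks, and right, the deposited fold of wild type over knockout (log axis), by place; boxes span the quartiles with the median as a line, and whiskers the 5th to 95th percentiles. Knockout signal is higher at cDC1-only gene-end peaks (median 4.95) than inside genes (3.30) or far from genes (2.89), with medians of 36.2, 34.4 and 34.4 in wild type.

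Shared strong gene-end peaks had less knockout signal than the cDC1-only ones. Their medians were 3.30 normalised tags in knockout and 38.3 in wild-type cDC1, a fold of 11.96 (223 peaks). Among the cDC1-only peaks, the 104 at a terminus had medians of 3.30 in knockout and 34.65 in wild-type cDC1 (fold 10.32), and the 1689 at a start had 4.95 in knockout and 36.5 in wild-type cDC1 (fold 7.90). Of the placed cDC1-only peaks, those at starts thus had the higher knockout signal. The fold changed little with strength, with medians of 7.65, 7.86, 8.08 and 9.21 from the lowest tag step to the highest.

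At gene ends a strong cDC1 peak was more often without a cDC2 peak than elsewhere. No cDC2 peak centre lay within 1 kb of 2112 of 2335 strong gene-end peaks (90.4%, exact 95% interval 89.2% to 91.6%), of 2710 of 3259 inside genes (83.2%, 81.8% to 84.4%) and of 1290 of 1700 far from genes (75.9%, 73.8% to 77.9%). The gap widened with strength. At 25 to 30 normalised tags the shares were 92.0% at gene ends, 89.0% inside genes and 87.3% far from genes, and at 60 and over they were 87.4% (82.9% to 91.0%), 69.4% (64.4% to 74.0%) and 56.5% (49.8% to 63.0%).

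**Figure D3:**
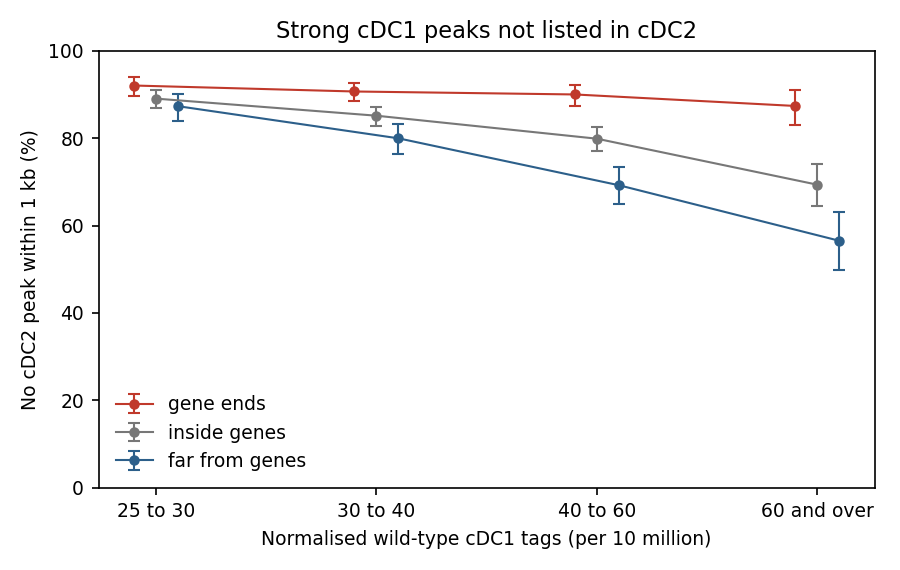
Share of strong cDC1 peaks with no cDC2 peak centre within 1 kb (y axis, %) by normalised wild-type cDC1 tags (x axis), with exact 95% intervals for counting error. At 60 tags and over the share is 87.4% at gene ends, 69.4% inside genes and 56.5% far from genes.

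Absence from the cDC2 list is not absence of binding in cDC2. At equal density the 2112 peaks would hold 11.9 to 99.2 tags (median 17.3) at the wild-type cDC2 depth, and the smallest listed cDC2 peak held 6 tags. This expectation scales for depth only. Peaks took up 6.47% of the cDC1 tags but 0.79% of the cDC2 tags. Whether each of the 2112 would be listed in cDC2 at equal binding was not tested. Where strong gene-end peaks were listed in both subsets, the median was 38.3 normalised tags in wild-type cDC1 and 30.4 in wild-type cDC2. That set holds only peaks already listed in cDC2. The cDC2 signal at the cDC1-only peaks, and whether the cDC2 knockout control removed them from the list, were not analysed here. A cDC2 centre lay between 1 and 2 kb away at 33 of the 2112, and within 10 kb at 183 (8.66%), against 11.2% of strong cDC1-only peaks inside genes and 13.9% of those far from genes.

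The strongest peak, chr7:127208847-127209037, lay at ends of Mylpf, a myosin light chain of fast muscle, and Tbc1d10b, a Rab GTPase-activating protein, with 9.07 normalised tags in knockout and 207.8 in wild-type cDC1. Its fold of wild type over knockout was 22.95 (exact 95% interval 12.7 to 46.1 for counting error). The second, 672 bp past the terminus of Gm2a, a lysosomal activator of ganglioside breakdown, had 10.3 in knockout and 175.2 in wild-type cDC1. In both, the knockout signal was above the median of all 2112 and the fold above theirs as well.

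Ifngr1, the ligand-binding chain of the interferon gamma receptor, had 11.5 normalised tags in knockout and 139.1 in wild-type cDC1 at a peak 252 bp upstream of its start (chr10:19591602-19591792, fold 12.06, 7.12 to 22.2). Srgap2 had 23.1 in knockout and 142.8 in wild-type cDC1 (fold 6.19, 4.23 to 9.41). Strong knockout signal stood beside strong wild-type signal at Srgap2. Of the other peaks among the 12 strongest, those at Agpat1 and Rnf5, Zbtb20, Fam168a, Sp1 and Ankrd54 lay 105 to 306 bp upstream of starts. They had 9.07 to 16.1 normalised tags in knockout and 113.6 to 128.4 in wild-type cDC1, with folds of 7.80 to 12.77.

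The other 2 of the 12 lay inside genes near their termini. Lars2, a mitochondrial leucyl-tRNA synthetase, had 26.8 normalised tags in knockout, the highest of the 2112, and 123.3 in wild-type cDC1 (fold 4.60, 3.17 to 6.66). Slc12a3, a sodium chloride cotransporter, had 16.5 in knockout and 116.4 in wild-type cDC1 (fold 7.14). At the Lars2 peak the signal was 67.17 times that of the surrounding 10 kb, against a median of 9.48 over the 2112. Whether reads that map to several places add to the Lars2 signal was not tested.

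The steepest contrasts rested on single knockout tags. Above the lowest knockout value, the 6 highest folds were at Vcpip1 (95.53), Fcrlb (59.81), Slamf7 (59.64), Il1r2 (54.00), Spz1 (50.93) and Prr13 (50.76), each with 1 knockout tag (0.825 normalised). Il1r2, a decoy receptor for interleukin 1, had 0.825 in knockout and 42.0 in wild-type cDC1, and the 95% interval of its fold began at 9.55. Slamf7, a receptor of the SLAM family, had 0.825 in knockout and 49.2 in wild-type cDC1 (lower limit 10.5). Where no more than the lowest knockout value was listed, only the lower bound of the fold's exact 95% interval is given. Tlr4, the receptor for bacterial lipopolysaccharide, had 48.8 normalised tags in wild-type cDC1 and a lower limit of 15.9. The glucocorticoid receptor gene Nr3c1 had 35.5 in wild-type cDC1 (lower limit 11.5), and Arid5a, an RNA-binding protein of inflammatory mRNAs, had 43.7 (lower limit 14.4).

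At the tag minimum, 19 of the 2112 peaks held exactly 25 normalised tags. Just inside it, the peaks at Stam2 and at Mip and Timeless each had 4.95 in knockout and 25 in wild-type cDC1 (fold 5.04). Just outside it, otherwise qualifying peaks at Ppfibp2 and Sh3glb1 had 1.24 and 1.65 in knockout and 24.8 each in wild-type cDC1.

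The 2112 peaks lay within 1 kb of an end of 2383 of 21900 protein-coding genes (10.9%), and any cDC1 peak lay at an end of 6675 (30.5%). Of the genes, 2225 had 1 strong cDC1-only end peak, 151 had 2 and 7 had 3 or more. A peak can belong to several genes: 1686 lay at 1 gene, 416 at 2 and 10 at 3 or more. Eif4a1, an RNA helicase of translation initiation, had peaks of 85.0, 48.9 and 34.7 normalised wild-type tags, and the first of them lay 10 bp upstream of the start of its neighbour Cd68. Daxx, a histone chaperone, had 56.7, 38.1 and 37.1, and Ubap2l, an RNA-binding protein of stress granules, had 54.1, 33.8 and 30.3. Mllt11 had 51.6, 31.3 and 26.2, and Cdc26, a subunit of the anaphase-promoting complex, had 44.1, 29.9 and 25.1. The strongest peaks of Daxx, Ubap2l and Cdc26 lay nearer to ends of their neighbours Zbtb22, Hax1 and Prpf4.

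Lists of genes for dendritic cell functions were read against the 10.9% of all genes with such a peak. Of 410 genes in 17 lists, 93 had one. Since each list was chosen with earlier results of these data known, the counts describe the lists and are no test of them. Up to 3 genes per list are named by the strength of their peak, and the others after their values were seen.

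Among genes of apoptosis and survival, 11 of 24 (45.8%) had a strong cDC1-only end peak, the highest share of the 17 lists, with a median fold of 11.66 against 8 over all 2112. Birc3, a ubiquitin ligase that curbs cell death, had 4.54 normalised tags in knockout and 59.8 in wild-type cDC1. Bcl2l11, which encodes the death-promoting protein Bim, had 5.77 in knockout and 53.3 in wild-type cDC1 at the sequence given above (fold 9.23, 4.39 to 23.3). Casp8, an initiator caspase, had 5.77 in knockout and 47.5 in wild-type cDC1. Both arms of the pathway were present, since Bbc3, Bid, Bak1 and Pmaip1 promote death and Birc2 and Bcl2a1b oppose it. Bcl2a1b is 1 of several near-identical copies whose reads may be shared. Of the same list, Bcl2, Bcl2l1, Mcl1, Xiap and Bax had no cDC1 end peak.

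Of NF-κB and MAP kinase genes, 11 of 30 (36.7%) had one. Dusp10, a phosphatase of stress kinases, had 5.77 normalised tags in knockout and 48.5 in wild-type cDC1 (fold 8.40, 3.99 to 21.2) over the CCAAT-rich sequence given above. Rel, an NF-κB subunit, had 7.01 in knockout and 44.4 in wild-type cDC1, and Map3k8, a kinase of Toll-like receptor signalling, had 9.07 in knockout and 42.4 in wild-type cDC1. Brakes of the pathway were there beside its drivers: Tnfaip3, which encodes A20, had 1.65 in knockout and 39.5 in wild-type cDC1, and Nfkbia, which encodes IκBα, had 6.60 in knockout and 40.6 in wild-type cDC1.

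cDC1 marker genes had such peaks at 9 of 25 (36.0%), and cDC2 marker genes at 4 of 25 (16.0%). Any cDC1 end peak was at 64% and 44% of them, and a strong shared one at 3 and 1 genes. Of the cDC1 markers, Clec9a, Batf3 and Itgae had no cDC1 end peak, and Cadm1 and Cd8a had only weaker ones. Sirpa and Itgam, of the cDC2 markers, had none. Tlr3, the endosomal sensor of double-stranded RNA, had 2.89 normalised tags in knockout and 60.2 in wild-type cDC1, 88 bp into the gene (fold 20.9, 7.04 to 67.7). Xcr1, the chemokine receptor that marks cDC1, had 9.49 in knockout and 56.1 in wild-type cDC1, at a peak 300 bp past its terminus that also lay 116 bp upstream of the start of Fyco1, with a cDC2 peak centre 1.25 kb away. Xcr1 also had a strong shared peak within 1 kb of an end. Gpr141b had 4.12 in knockout and 53.3 in wild-type cDC1. Wdfy4, which cDC1 need for cross-presentation, had 4.95 in knockout and 47.2 in wild-type cDC1. Among cDC2 markers, Clec12a had 4.12 in knockout and 61.5 in wild-type cDC1, with a cDC2 peak centre 1.40 kb away, and Relb, an NF-κB subunit needed for cDC2 development, had 14.0 in knockout and 72.3 in wild-type cDC1.

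Core dendritic cell genes had them at 8 of 26 (30.8%). Stat3, a transcription factor downstream of Flt3, had 12.8 normalised tags in knockout and 79.9 in wild-type cDC1 (fold 6.39, 3.75 to 11.0), 32 bp into the gene. Ciita, the master regulator of MHC class II genes, had 1.65 in knockout and 65.3 in wild-type cDC1 (fold 39.56, 10.8 to 328). Zbtb46, a marker of the conventional dendritic cell lineage, was listed at the lowest knockout value with 38.5 normalised tags in wild-type cDC1, at a peak 815 bp into the gene (lower limit of the fold 12.6). That peak was nearer to the start of Abhd16b, 759 bp upstream of it. Flt3, the receptor that drives dendritic cell growth, was near the minimum with 2.47 in knockout and 25.5 in wild-type cDC1.

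Genes of antigen processing and presentation had them at 9 of 31 (29.0%), with a median fold of 5.71, the lowest of the lists with more than 1 gene. Rab43, a GTPase of cDC1 cross-presentation, had 10.3 normalised tags in knockout and 82.6 in wild-type cDC1. H2-DMb1, a chain of the MHC class II peptide editor, had 18.6 in knockout and 80.6 in wild-type cDC1 (fold 4.38, 2.80 to 6.86). Sec61b, a subunit of the translocon, had 13.2 in knockout and 57.8 in wild-type cDC1 (fold 4.38), at a peak 162 bp upstream of its start and nearer to an end of Alg2 (132 bp). H2-DMb1 and Sec61b lay near the limit of 4 that the authors set, whereas Ciita, also of this list, was at 39.56.

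Cytokine and costimulation genes had them at 9 of 29 (31.0%). Cd86, a costimulator of T cells, had 4.54 normalised tags in knockout and 89.8 in wild-type cDC1 (fold 19.82, 8.26 to 49.9). Cxcl16, a chemokine, had 15.7 in knockout and 78.4 in wild-type cDC1, at a peak nearer to the terminus of Med11. Il12b, the p40 subunit of interleukin 12, had 1.65 in knockout and 47.9 in wild-type cDC1, 321 bp past its terminus (fold 30.08, with 8.20 as the exact lower limit). For Il12b the strong cDC1-only peak thus lay at the 3′ end and not at the promoter. Il18, another cytokine of dendritic cells, was listed at the lowest knockout value with 43.1 normalised tags in wild-type cDC1 (lower limit of the fold 14.0). A cDC2 peak centre lay 1.07 kb away, and Il18 also had a strong shared peak within 1 kb of an end.

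Interferon and Toll-like receptor genes had them at 6 of 32 (18.8%), beside any cDC1 end peak at 59.4%. After Ifngr1 and Tlr4, the next was Ifnar1, a receptor chain for type I interferons, with 3.71 normalised tags in knockout and 36.2 in wild-type cDC1 (fold 9.91, 3.71 to 27.8). Chromatin and corepressor genes had them at 6 of 30 (20%). Eed, a Polycomb subunit, had 11.1 in knockout and 54.1 in wild-type cDC1, and Crebbp, a histone acetyltransferase, had 3.71 in knockout and 45.1 in wild-type cDC1 at its terminus. A cDC2 peak centre lay 1.265 kb from the Crebbp peak. Ctbp2, a corepressor of the family that DC-SCRIPT binds, had 2.47 in knockout and 49.8 in wild-type cDC1 (fold 20.34, 6.83 to 99.3).

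Endosome and vesicle genes had them at 10 of 28 (35.7%), and any cDC1 end peak at 75%. Beside Rab43, Vps35, a subunit of the retromer that recycles endosomal cargo, had 13.6 normalised tags in knockout and 60.3 in wild-type cDC1. The Vps35 peak lay 180 bp from an end of that gene and nearer to the start of Orc6 (65 bp). Rab5c, a GTPase of early endosomes, had 3.71 in knockout and 57.8 in wild-type cDC1 (fold 15.57, 5.91 to 43.6). Cytosolic ribosomal protein genes, which every cell uses, had them at 8 of 30 (26.7%), with any cDC1 end peak at 76.7%. Rps19 had 4.54 in knockout and 87.0 in wild-type cDC1, and Rpl27 had 5.77 in knockout and 47.4 in wild-type cDC1. The ribosomal share was thus between those of the antigen presentation and the chromatin lists, above the 10.9% of all genes.

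Marker genes of other cell types had shares near or below the 10.9% of all genes. The shares were 3 of 22 for monocytes, macrophages and neutrophils (13.6%), 2 of 16 for plasmacytoid dendritic cells (12.5%), 1 of 11 for erythroid cells (9.09%), 1 of 17 for B cells (5.88%), 0 of 22 for T and NK cells and 0 of 25 for neuron and liver genes. Cd68, a lysosomal protein of phagocytes, had 6.60 normalised tags in knockout and 85.0 in wild-type cDC1 (fold 12.9, 6.47 to 30.2). Ly6c2, a surface protein of monocytes and plasmacytoid dendritic cells with near-identical copies, had 2.06 in knockout and 53.7 in wild-type cDC1. Lair1 had 3.71 in knockout and 25.5 in wild-type cDC1, and Cd14 had 1.65 in knockout and 37.5 in wild-type cDC1. Tfrc, the transferrin receptor of the erythroid list, had 3.30 in knockout and 32.7 in wild-type cDC1. The one B cell gene, Fcrla, was listed at the lowest knockout value with 38.5 normalised tags in wild-type cDC1 (lower limit of the fold 12.5), and a cDC2 peak centre lay 2.21 kb away. Whether other cells in the sort contributed to these peaks was not tested.

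**Figure D4:**
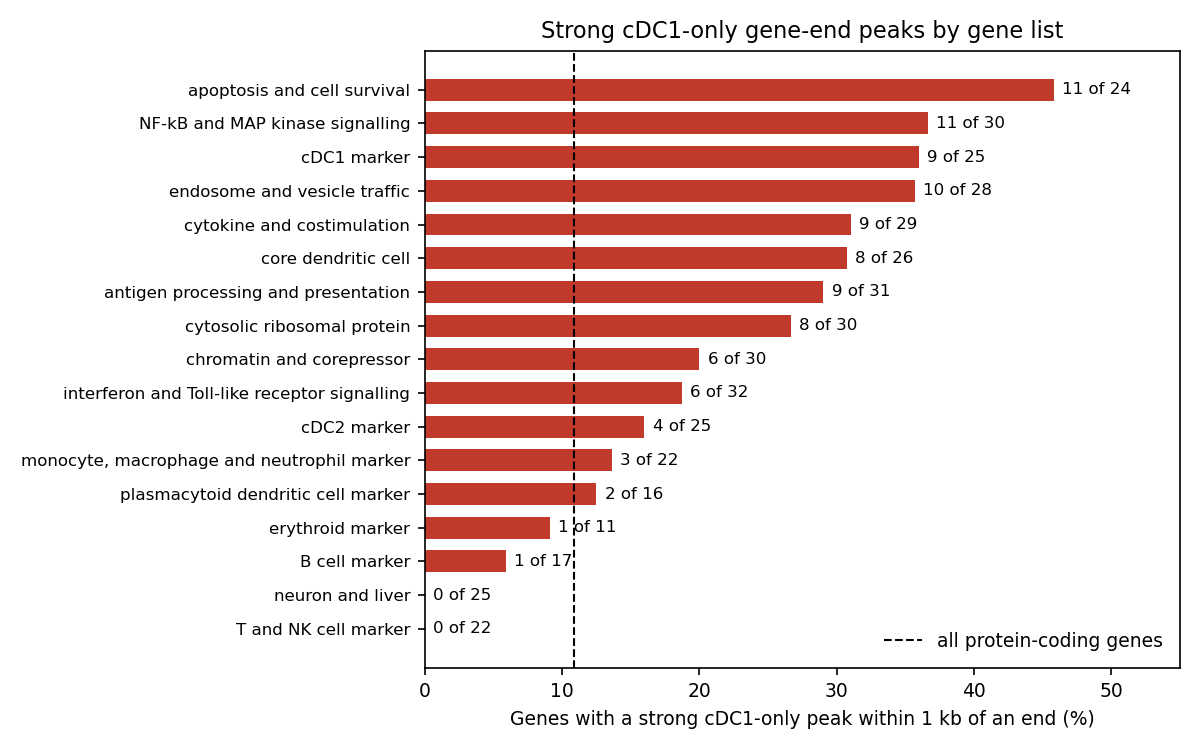
Share of the genes of each list with a strong cDC1-only peak within 1 kb of an end (x axis, %), with counts; the dashed line is the 10.9% of all protein-coding genes. Shares run from 45.8% for apoptosis and cell survival genes to 0 for T and NK cell markers and for neuron and liver genes.

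The promoters were GC-rich. Of the 974 promoter windows of 300 bases that held the centre of a strong cDC1-only peak, 839 (86.1%) had an observed over expected CpG ratio of 0.6 or more, against 77.4% of 93 windows with a strong shared peak, 82.4% of 1302 with a weaker cDC1-only peak and 34.9% of 12118 windows whose start had no cDC1 peak within 1 kb. The median GC content was 62.7%, 59.3%, 62.0% and 53.3% in the same order. The windows of genes with a peak were thus GC-rich at strong and weaker peaks alike.

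Motif letters were searched on both strands in all 17492 windows. GGGCGG, the GC box, was in 74.4% of windows with a strong cDC1-only peak and 37.0% of windows without a peak, CCAAT (NF-Y) in 51.6% and 38.1%, CCGGAAG (ETS) in 23.2% and 7.62%, and ATGGCGG (YY1) in 10.2% and 3.94%. Over all windows the shares were 46.3%, 39.2%, 11.9% and 5.44%. Windows with a weaker cDC1-only peak had 69.3%, 42.9%, 25.4% and 9.75%, and those with a strong shared peak 68.8%, 48.4%, 19.4% and 6.45%. Of these sets, ETS letters had their highest share at the weaker peaks. Since GC boxes and CpG content go together, windows with a CpG ratio of 0.6 or more were compared by themselves: the GC box was in 78.3% of 839 with a strong cDC1-only peak and 72.8% of 4229 without a peak, NF-Y in 52.1% and 34.3%, and ETS in 25% and 15.6%. YY1 letters were in 10.8% and 8.89% of the same windows. Within them the differences in GC boxes and YY1 letters were thus small, and those in NF-Y and ETS letters were larger.

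GAGGAAGT, the PU.1 letters, was in 4.83% of windows with a strong cDC1-only peak (47 of 974), 10.8% with a strong shared peak (10 of 93), 3.84% with a weaker peak and 2.64% without a peak, against 3.14% of all. TGANTCA, the AP-1 letters, was in 4.31%, 12.9%, 3.92% and 8.13% of the same sets, and in 7.03% of all. Split by CpG ratio, AP-1 letters were in 2.98% of strong cDC1-only windows and 3.52% of windows without a peak at 0.6 or more, and in 12.6% and 10.6% under 0.6. Shared promoters thus had both motifs more often than cDC1-only ones, at counts of 10 and 12 windows. Among the 135 strong cDC1-only windows with a CpG ratio under 0.6, PU.1 letters were in 12.6%, against 3.30% of 7889 such windows without a peak. Where a window held PU.1 letters the medians at its peak were 3.71 normalised tags in knockout and 38.5 in wild-type cDC1 (fold 10.04), and where it held none they were 4.95 in knockout and 36.9 in wild-type cDC1 (fold 7.95).

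The other letters searched were CACGTG (E-box), TGACGTCA (CRE), TGTGGTT (RUNX), TTCNNNGAA (STAT), TTGCNNAA (C/EBP), together with the NRF1 and NF-κB motifs, the interferon-stimulated response element (ISRE) and a doublet of ETS and IRF cores. Each was in under 10% of the windows with a strong cDC1-only peak, with the E-box at 9.34% and 6.89% of windows without a peak, RUNX at 4.72% and 5.35%, and NF-κB at 0.513% and 0.363%. Split by CpG ratio, the order changed for the E-box and RUNX. At 0.6 or more, the E-box was in 9.77% of strong cDC1-only windows and 11.8% of windows without a peak. Under 0.6 its shares were 6.67% and 4.23%. RUNX letters were in 3.93% and 2.55% at 0.6 or more, and in 9.63% and 6.84% under 0.6. PU.1 letters can overlap those of the ETS and IRF doublet, and ISRE letters can overlap it as well. All 15 motifs were chosen after the files were read.

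**Figure D5:**
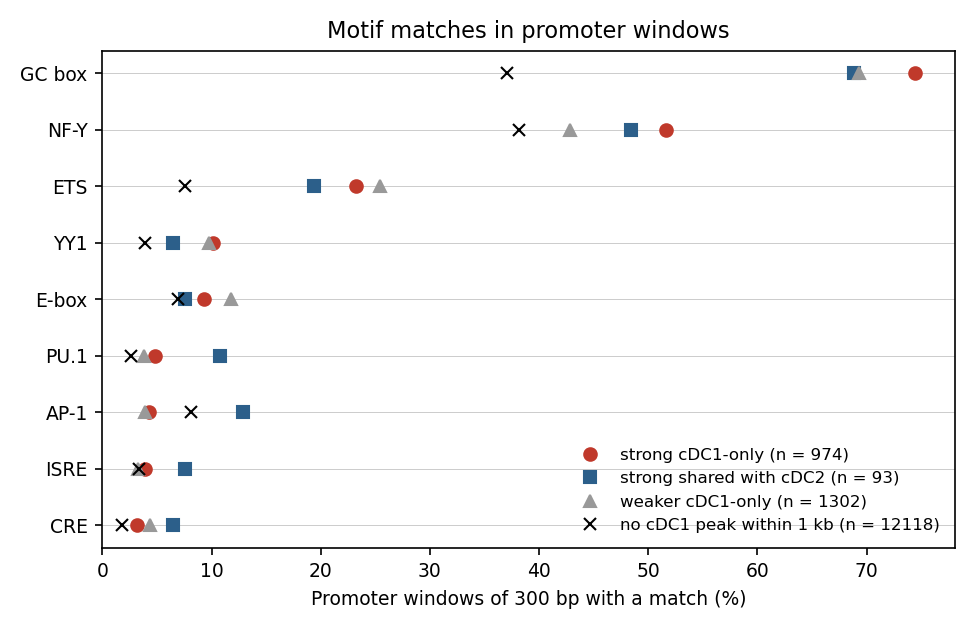
Share of 300-base promoter windows with a match (x axis, %) for 9 of the 15 motifs (rows), for windows with a strong cDC1-only, a strong shared or a weaker cDC1-only peak and for those with no cDC1 peak within 1 kb of their start. The GC box is in 74.4% of strong cDC1-only windows and 37.0% of those without a peak, and PU.1 and AP-1 letters are most frequent in the shared set (10.8% and 12.9%, n = 93).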

How the data were processed

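The authors deposited 1 peak list per subset, per the file headers called with HOMER findPeaks (factor mode) in 1 wild-type tag set, against 1 knockout tag set, with at most 1 tag per position. Peaks were 191 bp long, per the file headers, and passed a false discovery rate of 0.001; over the knockout, and over the local 10 kb, limits were a fold of 4 and a Poisson p of 0.0001. The submitters' processing notes name HOMER, GRCm38 and mm10. For the aligner, trimming, removal of duplicate reads before calling, molecular identifiers and the libraries in each tag set, nothing was given in the sources used here.

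As deposited, the signal is wild-type tags scaled by the authors to 10000000, called normalised tags; those behind the fold are at the knockout depth, and 14 of the 2112 peaks had over 5% more of them than the normalised tags. The deposited fold (a ratio) has wild type over knockout. The deposited p-value is a Poisson p over tags and was not used beyond the authors' limit, nor was the deposited score or the focus ratio, a fraction per the file headers. Knockout tags were scaled here to the same total with a depth of 12.1 M tags, worked out from the steps of the scaled tags; the lowest value, 0.5 tag, also stands for none. Repeated tags may be counted in the listed signal despite that limit, since 737 wild-type tags lay in the 191 bp of the Mylpf peak.

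Peak centres were joined to gene ends and strands from RefSeq tables of GRCm38.p6. Strand was known for genes with a promoter entry, and the window nearest the gene's outermost start was used. Of 424 list entries, 421 matched by symbol, 2 by synonym and 1 not at all; 13 genes stood in more than 1 list. Named genes were those of the 12 strongest peaks, the 6 highest folds above the lowest knockout value, up to 3 per list, 2 peaks on each side of the tag minimum and 5 genes with most peaks; 1 gene of these is not reported here. Members, lists and tests were chosen with earlier results of these data known. Motifs, CpG classes, tag steps and position intervals were added after the files were read. Intervals are exact (Clopper-Pearson, 95%) and cover counting error only. No test between genotypes was made, because the lists have no columns per library. The join and the intervals of the tag ratio were tested on simulated data. Python 3.11.15, pandas 2.3.3, numpy 2.4.6 and scipy 1.17.1 were used.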

Additional observations from a re-analysis of the deposited data

How the results depend on the processing

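With a tag minimum of 20 or 30, a gene end within 0.5 or 2 kb, or a cDC2 centre within 0.5 or 2 kb, the number of peaks was between 1545 and 2941, against 2112, and list genes with a peak numbered 79 to 123, against 93. The median fold of wild type over knockout was 7.74 with a gene end within 0.5 kb, against 8, and moved less under the other settings. The start share, 94.2%, was 96.6% within 0.5 kb of a gene end and 91.1% within 2 kb. Peaks at the lowest knockout value numbered 37, with a start share of 82.1% and 6 list genes. The cause of these moves was not tested, beyond the smaller or larger set that each rule takes.

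No paired analysis was possible because each deposited list holds 1 knockout and 1 wild-type set, with no replicate numbers. Nor was any library left out in turn, since the lists have no columns per replicate. Depth limits the knockout values: 406 of the 2112 peaks held 3 or fewer knockout tags. Wild-type cDC1 had 35.5 M tags and wild-type cDC2 4.77 M. The part of depth in which peaks the cDC2 list holds was not tested.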

Other observations

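Symbol families, which share genes with the lists, were counted after the peaks were chosen, and no test was made of them. Rab GTPases, switches of vesicle traffic, had a strong cDC1-only end peak at 27 of 69 genes (39.1%), with 83.7 normalised wild-type tags at Rab11b, 82.6 at Rab43 and 76.0 at Rab8a. MAP kinase kinase kinases had them at 8 of 19 (42.1%) and Kruppel-like factors at 7 of 17 (41.2%), led by Klf2 with 10.3 normalised tags in knockout and 89.9 in wild-type cDC1. Genes counted by the symbol prefix of the translation initiation factors, which takes in related genes such as Eif2ak3, had them at 17 of 56 (30.4%). Those with the prefix of the proteasome subunits, Psme3ip1 among them, had them at 10 of 51 (19.6%). Zinc finger (Zfp) genes, at 36 of 397 (9.07%), and solute carriers, at 39 of 375 (10.4%), were near the 10.9% of all genes. Olfactory receptors had 4 of 1110 (0.360%), and keratins (0 of 53), Hox genes (0 of 39) and defensins (0 of 71) had none.

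By chromosome, the share of genes with such a peak was 2.90% on the X (28 of 966) and 0 of 256 on the Y. Female mice lack a Y, yet the cDC1 list held 10 peaks on it, and their origin was not tested. Across the autosomes it was between 8.70% on chromosome 14 and 14.7% on chromosome 12.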
